A study of Mus musculus with 27 samples.

Results

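Runx1 and Runx2 are DNA-binding proteins of the Runt family that recognise the sequence TGTGGT with the partner protein Cbfb, and the regions examined here are places where both were found by chromatin immunoprecipitation (ChIP-seq) although the chromatin was not scored as open. Of the 10187 Runx1 ChIP peaks of control cells, 1476 (14.5%) overlapped a Runx2 peak of control or Runx1KO cells by at least 1 bp and overlapped no region of the 3 ATAC-seq lists. They made up 22.6% of the 6534 Runx1 peaks shared with Runx2, and are called closed-chromatin shared peaks, a name for the absence of a listed region and not for a measured closed state. The figures call them members. The 5058 other shared peaks overlapped an ATAC-seq region and served as the comparison.

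Transcription factors mostly occupy DNA that nucleosomes leave accessible, and ATAC-seq marks such DNA by transposase insertion. Much of the mouse genome is made of repeats, and short reads from repeats match several places. Runx proteins also bind beside AP-1, the Fos and Jun dimer that recognises TGACTCA or TGAGTCA and is common at active enhancers.

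The cells were mK4, a mouse line derived from kidney metanephric mesenchyme, grown in medium with 10% serum. Control cells were the wild-type parental line, and Runx1KO cells were a sub-line in which CRISPR/Cas9 had removed exon 3 of Runx1, which holds the start codon used in mK4 cells. How many clones were sequenced is not given in the sources used here, so clone and genotype cannot be told apart. Runx1 ChIP peaks of control cells, Runx2 ChIP peaks of control and Runx1KO cells, ATAC-seq regions of both lines and RNA-seq of 3 libraries a line were used. RNA-seq of ZebDKO cells, which lack Zeb1 and Zeb2, entered 1 alternative model.

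The peak lists held 10187 Runx1 peaks, 17595 Runx2 peaks of control cells and 15608 Runx2 peaks of Runx1KO cells. The ATAC-seq lists held 8741 Runx1-dependent regions (open in control cells), 37481 Runx1-independent regions (open in both lines) and 9427 Runx1KO-induced regions. ChIP-seq peaks were called on combined replicates and ATAC-seq regions were kept when found in at least 2 of 3 replicates. The lists hold no values per replicate and so no replicate error, and the tests below compare counts of peaks and not of cultures. Neighbouring or sequence-related peaks are not independent, which makes their p-values too small. The ATAC-seq lists held 0 regions on unplaced sequences, so the 122 closed-chromatin shared peaks there met the rule without a measurement. Those 122 and 2 on the mitochondrial genome were left out, and 1352 on chromosomes 1 to 19 and X were analysed.

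The 1352 closed-chromatin shared peaks fell into single-copy and repeated sequence. A 200 bp window around each Runx1 summit was split into 31-base words, and a window was called single-copy when at most 50% of its words occurred more than once in the mouse genome (mm9). By this measure 505 peaks (37.4%) were single-copy and 847 (62.6%) were multicopy. The words of the multicopy windows occurred a median of 540 times, and the part that read placement played in the results on them was not tested. Among shared peaks in open chromatin 4918 of 5058 (97.2%) were single-copy. The odds ratio of being single-copy was 0.017 (95% interval 0.0138 to 0.0208, Fisher's exact test). Runx1 peaks outside open chromatin that lacked Runx2 were single-copy in only 93 of 3406 cases (2.73%). Of the 598 single-copy Runx1 peaks outside open chromatin, 505 (84.4%) therefore carried Runx2, against 847 of 4160 multicopy ones (20.4%).

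The sequences under the summits show what the classes look like. The 3 windows below, 120 bp of the mm9 plus strand around the summit, come from single-copy peaks. The peaks whose nearest coding genes were Tcf3 (27919 bp away) and Tsc22d2 (212440 bp away), both nearer to an annotated U6 RNA start, were among the 10 of highest Runx1 fold, and the peak near Gli2 lay nearest to a gene that fell in Runx1KO cells. Capitals mark TGTGGT or its reverse complement ACCACA.
Member with nearest coding gene Tcf3, chr10:79924251-79924370: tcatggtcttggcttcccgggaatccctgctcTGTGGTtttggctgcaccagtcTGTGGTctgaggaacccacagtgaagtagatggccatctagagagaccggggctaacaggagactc
Member with nearest coding gene Tsc22d2, chr3:58006937-58007056: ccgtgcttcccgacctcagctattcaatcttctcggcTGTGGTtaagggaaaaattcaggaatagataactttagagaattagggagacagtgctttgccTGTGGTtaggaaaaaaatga
Member near Gli2, chr1:120990465-120990584: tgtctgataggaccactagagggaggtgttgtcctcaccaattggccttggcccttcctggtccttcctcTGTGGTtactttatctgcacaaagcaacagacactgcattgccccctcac
The Tcf3 peak (chr10:79924142-79924462, intergenic) had a Runx1 fold over background of 11 and Runx2 folds of 9.31 in control and 6.95 in Runx1KO cells. It lay 2702 bp from an ATAC-seq region. The Tsc22d2 peak (chr3:58006808-58007253, intergenic) had a Runx1 fold of 10.5 and Runx2 folds of 8.88 and 7.51, and lay 30410 bp from an ATAC-seq region. Each had 2 Runx hexamers in its 200 bp window.

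The 2 peaks of highest Runx1 fold were in tandem repeats of the Runx hexamer. The windows below are those 2 peaks.
Member near Ywhah, chr5:33383738-33383857: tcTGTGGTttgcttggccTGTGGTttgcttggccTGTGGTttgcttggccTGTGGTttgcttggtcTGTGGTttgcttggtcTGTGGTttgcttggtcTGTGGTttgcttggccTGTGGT
Member near Hmgn1, chr16:96335702-96335821: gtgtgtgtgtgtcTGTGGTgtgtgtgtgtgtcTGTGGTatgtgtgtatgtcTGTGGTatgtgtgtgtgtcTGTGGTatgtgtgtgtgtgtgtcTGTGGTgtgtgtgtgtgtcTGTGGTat
The peak near Hmgn1 (chr16:96335654-96335855, intergenic) had a Runx1 fold of 12.3, with Runx2 folds of 14.5 in control and 13.2 in Runx1KO cells, and 9 hexamers in 200 bp. The peak near Ywhah (chr5:33383532-33383959, intergenic) had a Runx1 fold of 12.1, with Runx2 folds of 11 and 10.4, and 12 hexamers. Its words occurred a median of 5 times in the genome. It was 1040 bp from a Runx1-independent ATAC-seq region.

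Other peaks held no TGTGGT on either strand within 100 bp of the summit. Variants of this hexamer were not searched, so a related Runx site may be present. The windows below show a single-copy peak of high fold and a multicopy peak.
Member in an intron of Cenpp, near Omd, chr13:49676983-49677102: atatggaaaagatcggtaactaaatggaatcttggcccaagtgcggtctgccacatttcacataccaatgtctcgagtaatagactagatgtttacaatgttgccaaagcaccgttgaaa
Member in an intron of Col4a4, chr1:82548636-82548755: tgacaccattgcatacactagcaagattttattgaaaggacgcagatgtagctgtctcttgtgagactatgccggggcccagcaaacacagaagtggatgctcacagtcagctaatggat
The peak in the intron of Cenpp (chr13:49676881-49677172) lay 1092 bp from the start of Omd, which encodes the matrix protein osteomodulin, and had a Runx1 fold of 10.2 and Runx2 folds of 9.48 and 7.99. The peak in Col4a4 (chr1:82548600-82548764) had a Runx1 fold of 5.62, a Runx2 fold of 3.99 in control cells and no Runx2 peak in Runx1KO cells. Its words occurred a median of 4921.5 times.

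The 5 remaining peaks of the 10 of highest Runx1 fold had folds from 9.05 to 9.77. The peak in an intron of the mucin gene Muc3 (chr5:137625759-137625925, fold 9.77) lay 144 bp from its annotated start and had Runx2 folds of 13.1 in both lines. The peak at Cntnap4 (chr8:115255000-115255477, fold 9.55), which encodes a neuronal adhesion protein, lay 89 bp from its start and 284142 bp from the nearest ATAC-seq region. Cntnap4 RNA was 0.7, 0.5 and 0.7 TPM in control cells and 0, 0.1 and 0 TPM in Runx1KO cells, below the limit for the test. The other 3 were intergenic 302337 bp from the nearest coding start, Mtpn (chr6:35792150-35792307, fold 9.63), in an intron of the non-coding gene 4930467D21Rik (chr5:97826537-97827001, fold 9.34) and intergenic near Crisp4 (chr1:18104703-18104854, fold 9.05). The peak near Crisp4 was placed among the 10 by list order from equal folds. All 10 had a Runx2 peak in both lines, and 8 of the 10 windows held the Runx hexamer.

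Across the 505 single-copy closed-chromatin shared peaks, 365 (72.3%, Wilson 95% interval 68.2 to 76) held TGTGGT on either strand within 100 bp of the summit. Of the 4918 single-copy shared peaks in open chromatin, 2272 (46.2%, 44.8 to 47.6) did. The odds ratio was 3.04 (2.47 to 3.75), and Fisher's exact test gave an adjusted p of 2.26e-28 over 27 motif tests. Over all windows the order was the opposite, with 545 of 1352 (40.3%) in closed and 2331 of 5058 (46.1%) in open chromatin (odds ratio 0.79, 0.698 to 0.894, adjusted p = 0.000294), because 180 of the 847 multicopy windows (21.3%) held the hexamer. The restriction to single-copy windows was chosen after the data were seen. Single-copy windows also differed in base composition, with a median share of G and C bases of 47.5% in closed and 56% in open chromatin. The tests did not adjust for this. Among all 9975 Runx1 peaks with a readable window 3340 (33.5%) held it, and 12.5% of 200 bp windows centred 1 kb to either side of the 1352 summits did.

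Many shared peaks in open chromatin were near gene starts, so the comparison was repeated over 1 kb from any annotated start. There 329 of 454 single-copy closed-chromatin peaks (72.5%) and 1649 of 2579 single-copy open ones (63.9%) held the hexamer, an odds ratio of 1.48 (1.18 to 1.87, adjusted p = 0.000744). The difference was smaller than over all single-copy peaks but kept its direction. The longer form TGTGGTT gave the same order, 44.7% against 36.7% (odds ratio 1.39, 1.13 to 1.71, adjusted p = 0.0023). Windows with 2 or more hexamers made up 26.2% and 16% (odds ratio 1.87, 1.46 to 2.37, adjusted p = 1.16e-06).

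**Figure D1:**
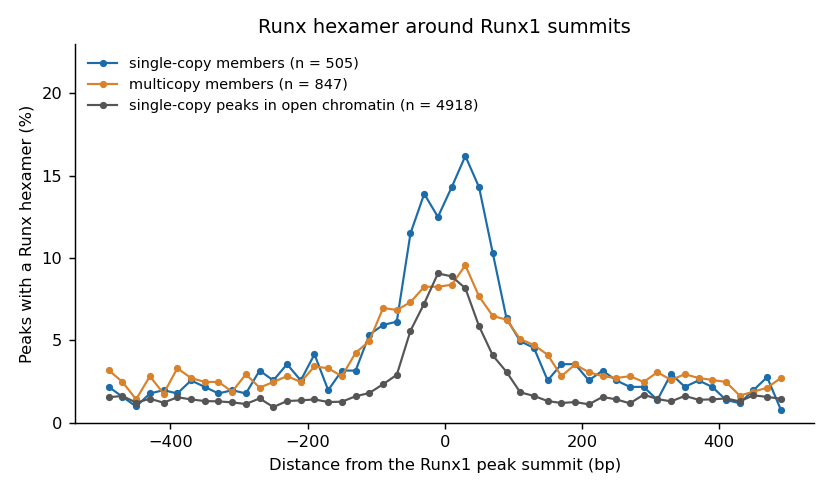
Share of peaks (%) with the middle of a Runx hexamer on either strand in each 20 bp bin, against distance from the Runx1 summit in bp. In single-copy closed-chromatin shared peaks ("members", blue) the share reached 16.2% in the bin centred 30 bp from the summit, against at most 9.07% in the bins within 30 bp for single-copy peaks in open chromatin (grey).

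The hexamer lay close to the summit at shared peaks. Counted by the middle of the hexamer, so that a match may cross the window's edge, 368 single-copy closed-chromatin peaks had it within 100 bp, at a median distance of 28.5 bp, and 2284 single-copy open peaks had it at a median of 27 bp. In 180 multicopy closed-chromatin peaks it was 14 bp. The distance is that of the nearest hexamer, and 82 multicopy windows held 4 or more. More hexamers in a window make this distance shorter, so 14 bp does not show a tighter centring. Multicopy Runx1 peaks that lacked Runx2 and open chromatin had a median of 51 bp over 389 peaks. The plot of the hexamer around the summits shows the first 3 of these classes.

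AP-1 sequences were less frequent in closed chromatin in each comparison made. The heptamers TGACTCA or TGAGTCA were in 44 of 1352 closed-chromatin windows (3.25%) and 804 of 5058 open ones (15.9%), an odds ratio of 0.178 (0.128 to 0.243, adjusted p = 1.3e-41). Among single-copy windows the shares were 7.72% and 16.2% (odds ratio 0.434, 0.302 to 0.609, adjusted p = 2.69e-07). Over 1 kb from a start they were 7.71% and 26.5% (odds ratio 0.232, 0.158 to 0.332, adjusted p = 1.26e-20). In windows 1 kb from the single-copy closed-chromatin summits the heptamers were in 41 of 1010 (4.06%).

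The Ets and Tead sequences differed over all single-copy peaks but did not pass the test over 1 kb from a start. The Ets sequence CCGGAAG, found at many promoters, was in 1.39% of single-copy closed-chromatin windows and 7.44% of open ones (odds ratio 0.175, 0.0694 to 0.367, adjusted p = 9.95e-09). Over 1 kb from a start the shares were 1.54% and 1.86% (odds ratio 0.826, 0.313 to 1.85, adjusted p = 0.954). The Tead sequence GGAATG was in 25.1% and 17.3% of single-copy windows (odds ratio 1.6, 1.28 to 1.99, adjusted p = 5.92e-05), and in 25.6% and 24.1% over 1 kb from a start (odds ratio 1.08, 0.851 to 1.36, adjusted p = 0.661). The Zeb sequences CAGGTA or CAGGTG were in 16.4% and 17.3% of single-copy windows (odds ratio 0.937, 0.723 to 1.2, adjusted p = 0.816). The Ctcf consensus was in 2.77% and 1.46% (odds ratio 1.92, 0.992 to 3.46, adjusted p = 0.0552). The Nfi consensus was in 0 of 1352 closed-chromatin windows, which allows a share of up to 0.283% (upper Wilson bound), and in 3 of 5058 open ones.

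**Figure D2:**
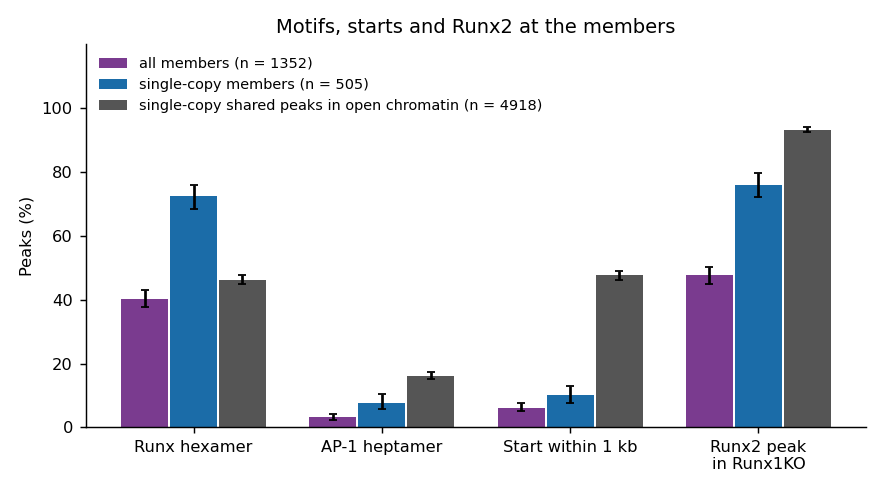
Shares of peaks (%) with a Runx hexamer, an AP-1 heptamer, a gene start within 1 kb, and a Runx2 peak in Runx1KO cells, with Wilson 95% intervals as bars. Single-copy closed-chromatin shared peaks (blue, 505) had more Runx hexamers (72.3% against 46.2%) and fewer of the other 3 features than single-copy shared peaks in open chromatin (grey, 4918). The Runx2 shares are a description, because the Runx2 list of Runx1KO cells was part of the rule.

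Repeats of the dinucleotide CA made up part of the multicopy class. A run of 10 or more CA or TG units lay in 170 of the 1352 closed-chromatin windows (12.6%), in 93 of 5058 open windows (1.84%) and in 261 of 3406 windows of Runx1 peaks that had neither Runx2 nor open chromatin (7.66%). Within multicopy closed-chromatin windows, 77 of the 146 with such a run (52.7%) held the Runx hexamer, and 103 of the 701 without one (14.7%) did. The median Runx1 fold was 4.96 in the first and 4.4 in the second. A Runx2 peak of Runx1KO cells was at 56.2% and 25.4% of them.

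Closed-chromatin peaks also shared sequence with each other. In all, 758 of the 1352 closed-chromatin windows (56.1%) shared a 31-base word with another of them, 52 of these being single-copy, and fell into 47 linked groups. The largest linked group held 218 peaks on 20 chromosomes, of which 8 had the hexamer and 17 (7.8%) a Runx2 peak in Runx1KO cells. The next held 209 peaks, 168 of them with CA or TG runs, of which 106 (50.7%) had the hexamer and 131 (62.7%) a Runx2 peak in Runx1KO cells. Peaks of a linked group share sequence and are not separate observations.

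Copy number moved with both the motif and Runx2. From 2 to 9 copies of the window's words, 65 of 140 multicopy peaks (46.4%) held the hexamer and 97 (69.3%) had a Runx2 peak in Runx1KO cells. From 10 to 99 copies these shares were 38.2% and 53.3% of 152 peaks. At 1000 copies or more they were 9.76% and 10.6% of 369 peaks.

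In cells without Runx1, Runx2 was found less often at closed-chromatin than at open shared peaks. The rule required a Runx2 peak in at least 1 line in both classes, without fixing which. In Runx1KO cells a Runx2 peak lay at 644 of 1352 closed-chromatin peaks (47.6%) and at 4688 of 5058 open ones (92.7%), and at 384 of 505 (76%) and 4585 of 4918 (93.2%) single-copy ones. Since the Runx2 list of Runx1KO cells was part of the rule, the test was made among peaks with a Runx2 peak in control cells. These met the rule whatever that list held. The authors had, however, already removed peaks that the Runx1 antibody gave in Runx1KO cells. How far that removal changed the shares below was not tested. This test was chosen after the data were seen. Of 1247 such closed-chromatin peaks 539, or 43.2%, and of 4943 open ones 4573, or 92.5%, had Runx2 in Runx1KO cells (odds ratio 0.0616, 0.0526 to 0.0721, Fisher's exact p = 9.2e-304). Among single-copy peaks 358 of 479 (74.7%) and 4477 of 4810 (93.1%) did (odds ratio 0.22, 0.173 to 0.281, Fisher's exact p = 3.01e-31). At multicopy closed-chromatin peaks it lay at 260 of 847.

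A Runx2 peak of control cells lay at 479 of the 505 single-copy closed-chromatin peaks (94.9%) and at 4810 of the 4918 open ones (97.8%), which is a description because the rule used that list. Of the single-copy closed-chromatin peaks 358 (70.9%) had Runx2 in both lines, 121 (24%) in control cells alone and 26 (5.15%) in Runx1KO cells alone. Of the multicopy ones 181 (21.4%) had it in both lines and 587 (69.3%) in control cells alone.

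Where Runx2 was found in both lines its fold was slightly lower in Runx1KO cells in closed and open chromatin alike. At 358 single-copy closed-chromatin peaks the median fold was 5.37 in control and 4.77 in Runx1KO cells, with a median ratio of 0.94 (quartiles 0.8 and 1.09), and 62.6% had the lower fold in Runx1KO cells. At 4573 open peaks the medians were 5.85 and 5.49, the median ratio was 0.946, and 62.9% were lower. The lists come from separate libraries whose depth is unknown, so this ratio is a description.

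**Figure D3:**
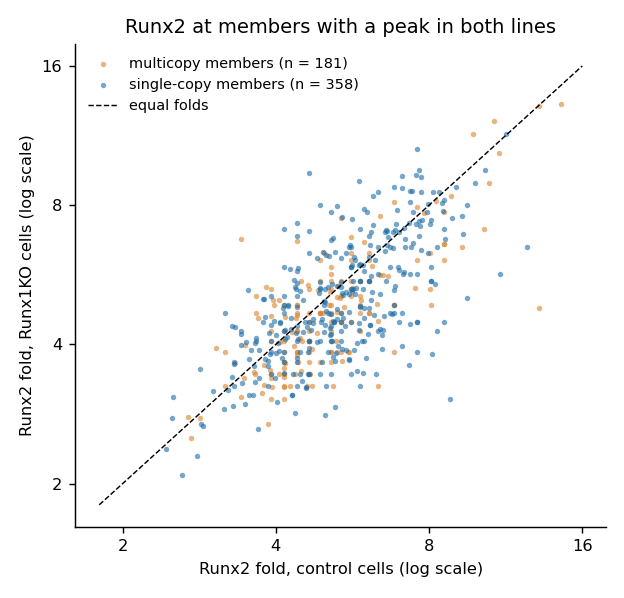
Runx2 fold over background in Runx1KO cells against control cells, both on log scales, for the 539 closed-chromatin shared peaks with a Runx2 peak in both lines. Points are peaks (blue single-copy, orange multicopy) and the dashed line marks equal folds; 65.3% of the points lie below it.

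The gap in Runx2 was present at each level of Runx1 fold, when all peaks were split into 4 equal bins. In the lowest bin 71 of 113 single-copy closed-chromatin peaks (62.8%) and 793 of 892 single-copy open ones (88.9%) had Runx2 in Runx1KO cells. In the highest bin 114 of 139 (82%) and 1804 of 1861 (96.9%) did. The bins match Runx1 fold and not Runx2 fold. In each bin the median Runx2 fold in control cells was lower at the closed-chromatin peaks. It was 4.05 against 4.4 in the lowest bin and 6.35 against 7.08 in the highest. The part that weaker Runx2 peaks played in the gap was not tested. These bins and the splits by repeat, copy number, hexamers and distance include peaks that met the rule through the Runx1KO list alone. The Runx2 shares in them are descriptions.

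The median Runx1 fold was 4.61 over the 1352 closed-chromatin peaks (quartiles 4.09 and 5.25) and 4.86 over the open ones (4.09 and 5.99). Runx2 folds in control cells had medians of 4.4 and 5.73. At single-copy peaks they were 5.13 and 5.75. Closed-chromatin Runx1 peaks were also narrower, with a median width of 158 bp against 229 bp.

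The number of hexamers went with strength and with Runx2 at multicopy peaks. The 667 without a hexamer had a median Runx1 fold of 4.43, and 146 (21.9%) had Runx2 in Runx1KO cells. The 82 with 4 or more had a median fold of 5.14, and 67 (81.7%) had it. At single-copy peaks the share was 74.3% of 140 without a hexamer, 73.1% of 238 with 1, 81.3% of 91 with 2, 89.5% of 19 with 3 and 88.2% of 17 with 4 or more, and these intervals overlapped.

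Closed-chromatin shared peaks were mostly far from gene starts. An annotated start lay within 1 kb of 83 of 1352 summits (6.14%) and of 2402 of 5058 open ones (47.5%), an odds ratio of 0.0723 (0.0568 to 0.0911, Fisher's exact test, p = 3.6e-205). At single-copy peaks these shares were 10.1% and 47.6% (odds ratio 0.124, 0.0904 to 0.167, Fisher's exact p = 7.91e-68). Open chromatin itself separates these classes, and the part that open gene starts played in the contrast was not tested. The median distance to a start was 11080 bp at single-copy closed-chromatin shared peaks. It was 10872 bp at the 93 single-copy Runx1 peaks with neither Runx2 nor open chromatin. Of the 1352 summits 794 (58.7%) were intergenic, 521 (38.5%) in introns, 16 in coding exons, 14 in UTRs and 7 in exons of non-coding transcripts.

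Their distance from open chromatin differed by copy number. The median gap to the nearest ATAC-seq region was 4057 bp for single-copy and 48109 bp for multicopy peaks. Within 10 kb of a region lay 359 of the 505 single-copy peaks (71.1%), and for 248 of those 359 (69.1%) the nearest region was Runx1-independent, for 59 (16.4%) Runx1-dependent and for 52 (14.5%) Runx1KO-induced. The 3 lists hold 67.4%, 15.7% and 16.9% of all ATAC-seq regions, so these shares were near the make-up of the lists. At the limit of the rule, 19 peaks lay within 100 bp of an ATAC-seq region and 10 shared peaks overlapped one by at most 50 bp, with hexamers in 14 of the 19 and 4 of the 10.

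At single-copy peaks the hexamer share varied within overlapping intervals across distances from open chromatin. The hexamer was in 69 of 100 within 1 kb of an ATAC-seq region, 193 of 259 (74.5%) from 1 to 10 kb, 85 of 117 (72.6%) from 10 to 100 kb and 18 of 29 (62.1%) beyond. At multicopy peaks the share was 38.9% of 36 in the nearest zone and 12.1% of 322 in the farthest. A Runx2 peak of Runx1KO cells was at 82% of the nearest and 55.2% of the farthest single-copy peaks, and at 61.1% and 16.5% of the multicopy ones.

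**Figure D4:**
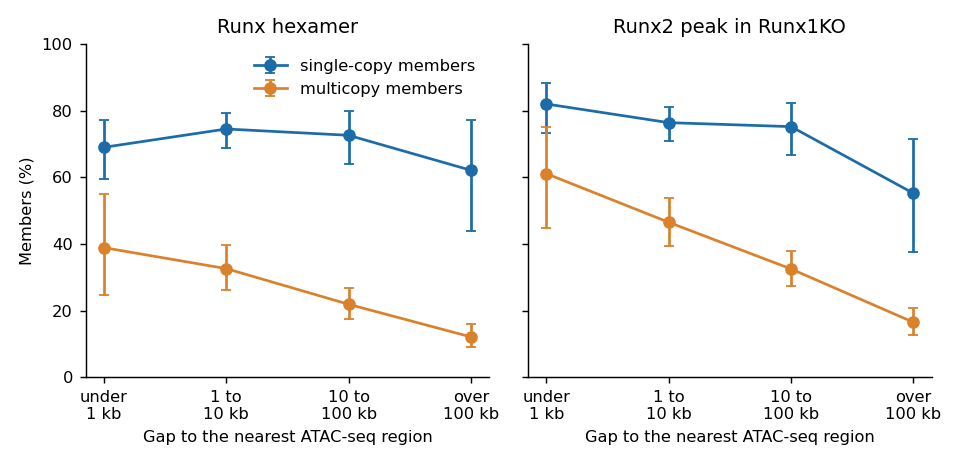
Share of closed-chromatin shared peaks (%) with a Runx hexamer (left) and with a Runx2 peak in Runx1KO cells (right), by gap to the nearest ATAC-seq region, with Wilson 95% intervals. Single-copy peaks (blue) stayed between 62.1% and 74.5% for the hexamer, while multicopy peaks (orange) ran from 38.9% to 12.1%.

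RNA-seq was used to ask how the genes nearest to closed-chromatin shared peaks differed between Runx1KO and control cells. TPM values (transcript abundance scaled for gene length and library total) of 3 libraries a line were compared with limma on log2(TPM + 1), so fold changes understate those of low genes. The 3 libraries of a line are labelled as separate replicates. Runx1 itself was at 18.7, 15.6 and 17.9 TPM in control and 30.3, 30.1 and 28.5 TPM in Runx1KO libraries, higher in all 3. These values cover the whole gene and do not check the removal of exon 3. Runx2 was lower in Runx1KO cells, at 5.47 ± 0.551 and 3.73 ± 0.153 TPM (SD, n = 3). Its log2 fold change was -0.45 (SE 0.0785, limma adjusted p = 0.00175), a fall of less than 2-fold. Cbfb was at 78.2 ± 4.17 and 73 ± 1.47 TPM. Of 18 metanephric mesenchyme genes 10 passed the filter, and the others were below this limit, described next.

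Of the 1352 peaks 1145 had a gene start within 100 kb, with 995 genes by name, 651 of them in the TPM table and 397 of those past the filter of 1 TPM in 3 libraries. Among the 397, 36 genes (9.07%) fell and 38 (9.57%) rose by over 2-fold at an adjusted p under 0.05. Over all 13067 genes tested 5.10% fell and 7.91% rose. The median log2 fold change was -0.08 for the 397 and -0.06 over all genes. For the 227 tested genes nearest to single-copy peaks 26 (11.5%) fell and 21 (9.25%) rose, for the 180 nearest to multicopy peaks 11 (6.11%) fell and 18 (10%) rose, and for the 2733 nearest to open shared peaks 139 (5.09%) fell and 126 (4.61%) rose. For the 470 nearest to Runx1 peaks with neither Runx2 nor open chromatin 45 (9.57%) fell and 41 (8.72%) rose. The share that fell was thus not particular to peaks shared with Runx2. These shares were not tested against each other.

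Other Runx1-linked chromatin lay near the same genes. A Runx1-dependent ATAC-seq region was within 100 kb of a start of 34 of the 36 genes that fell (94.4%), against 283 of all 397 (71.3%). A Runx1KO-induced region was within 100 kb of 36 of the 38 that rose (94.7%), against 287 of the 397 (72.3%). A shared peak in open chromatin was near 20 of the 36 (55.6%) and 21 of the 38 (55.3%), lower shares than the 255 of the 397 (64.2%). The part that the closed-chromatin peaks played in these changes was not tested.

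Among the 10 largest falls, Kif26b, a kinesin needed for adhesion of kidney mesenchyme, was at 16.2, 18.4 and 20.7 TPM in control and 0.1 TPM in each Runx1KO library (log2 fold change -4.14, SE 0.093, limma adjusted p = 5.98e-08). Its peak (chr1:180459543-180459894) was single-copy, in a UTR 426 bp from the start, 168 bp from a Runx1-dependent region and had no TGTGGT. Gli2, a Hedgehog transcription factor, was at 10, 9.2 and 9.6 TPM and at 0.1 TPM in each Runx1KO library (-3.27, SE 0.0677, limma adjusted p = 3.99e-08). The Gli2 window printed above lies 40329 bp from its start, 4131 bp from a Runx1-independent region, and had Runx2 folds of 4.4 and 5.43. Gas1, a Hedgehog co-receptor, fell from 71.3 ± 2.06 to 11.6 ± 1.15 TPM, with a multicopy peak 80059 bp away.

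The other 7 were Dpysl3, Pkdcc, Rnf144a, Gnpda2, Fam180a, Rerg and Gulp1, with log2 fold changes from -4.70 for Dpysl3, a cytoskeletal protein, to -2.45 for Gulp1, an engulfment adaptor. Dpysl3 was at 24.7, 25.3 and 24.8 TPM in control cells and listed at 0 in all 3 Runx1KO libraries. Pkdcc, a secreted kinase, was at 16.5, 15.5 and 15.4 TPM and also listed at 0. Rnf144a, a ubiquitin ligase, fell from 13.7 ± 0.458 to 0.1 TPM, and its peak, in an intron 16496 bp from the start, was single-copy with the hexamer. Of the 10 genes, 3 (Kif26b, Rnf144a and Gli2) had a single-copy peak nearest. Over all 36 genes that fell the nearest peak was single-copy for 26 (72.2%), against 224 of the 397 tested (56.4%). In all 36 genes that fell, which were chosen for their change, the control and Runx1KO libraries did not overlap. Nor did they in 312 of the 397 tested (78.6%), so this is common and not a trait of the genes that fell. The share over all genes tested was not counted.

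The 10 largest rises began with Capsl, a calcium-binding protein gene, at 0.4, 0.2 and 1.2 TPM in control and 124, 117 and 127 TPM in Runx1KO libraries (log2 fold change 6.32, SE 0.206, limma adjusted p = 3.32e-07). Its peak (chr15:9373419-9373795) lay in an intron 7685 bp from the start, was single-copy with 1 hexamer, and had a Runx2 peak in Runx1KO cells alone. Wfdc2, a secreted protease inhibitor, rose from 175 ± 0.987 to 2414.7 ± 14.6 TPM. Laptm5, a lysosomal membrane protein, was at 0.2 TPM in each control library and at 21.8, 19.3 and 15.5 TPM. Myh14, a non-muscle myosin, rose from 0.267 ± 0.0577 to 12.3 ± 0.866 TPM. Pdzd2, Col4a4, Hpcal4, Cbr2, Atp2c2 and Cdyl2 had log2 fold changes between 2.22 and 3.29.

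**Figure D5:**
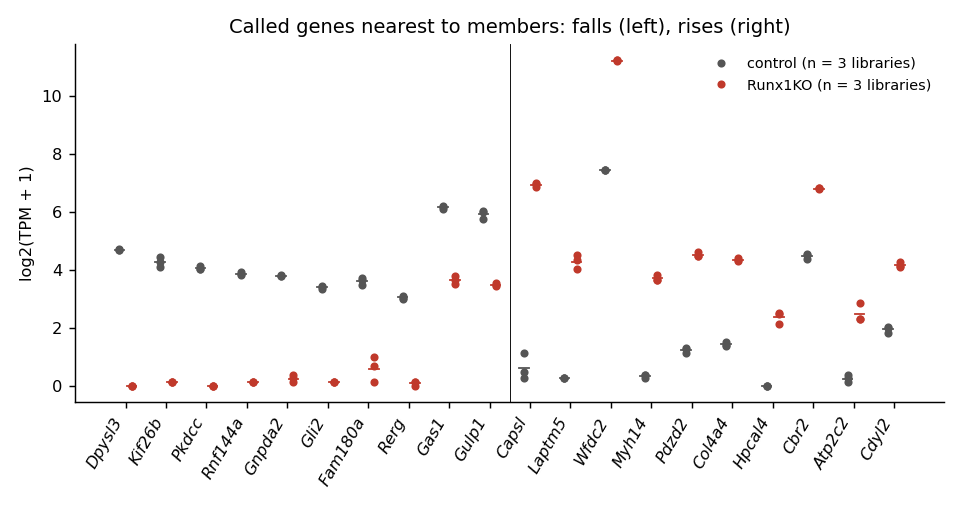
RNA level as log2(TPM + 1) in each library (points; short lines are means of 3) for the 10 largest falls (left) and 10 largest rises (right) among called genes nearest to closed-chromatin shared peaks. Control (grey) and Runx1KO (red) libraries did not overlap for any of the 20 genes, which were chosen for their change. Nor did they for 312 of the 397 tested genes nearest to closed-chromatin shared peaks (78.6%).

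The genes with most closed-chromatin peaks nearest were Rere and Arid5b with 4 each, and Muc3, Notch1 and Acn9 with 3 each. Arid5b, a chromatin regulator, was at 106, 89.7 and 108 TPM in control and 25.2, 26 and 25.7 TPM in Runx1KO libraries (log2 fold change -1.93, SE 0.0688, limma adjusted p = 5.12e-07). Notch1, a receptor of the Notch pathway, was at 34.1, 29.4 and 35.2 TPM and at 16.8, 17.4 and 15.5 TPM (-0.95, SE 0.0761, limma adjusted p = 3.3e-05), which is under the 2-fold limit. All 3 Notch1 peaks were single-copy. Rere, a nuclear co-regulator, was at 117 ± 14 and 106 ± 2.72 TPM and the libraries overlapped. Among genes nearest to the peaks of highest fold, Omd fell from 1.8, 1.4 and 1.4 TPM to 0, 0.1 and 0 TPM (-1.29, SE 0.108, limma adjusted p = 4.09e-05), while Hmgn1 was at 863 ± 21.3 and 981 ± 15 TPM and Ywhah at 415 ± 5.42 and 400 ± 10 TPM.

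Of the 5 peaks of highest fold within 1 kb of a start, those at Muc3 and Cntnap4 are given above. The peak at Kat2b (chr17:53723184-53723489), which encodes a histone acetyltransferase, had a Runx1 fold of 7.98 and lay 112 bp from the start, and Kat2b was at 17.3 ± 0.608 and 15.9 ± 0.451 TPM (limma adjusted p = 0.0561). The peak at chr1:188500077-188500248 lay in an intron of Tgfb2, near an annotated SNORA70 start, with a Runx1 fold of 7.58 and a Runx2 fold of 9.25 in Runx1KO cells. The fifth, at Gm10291 (chr3:78721537-78721674, fold 6.71), lay in sequence found a median of 69 times in the genome.

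The 6 gene lists, written from general knowledge with earlier results known, had few genes nearest to closed-chromatin peaks. Their counts stand beside 5.10% of all tested genes that fell and 7.91% that rose. Of 9 Runx factors and partners 8 were tested and 0 passed, and 2 (Runx1 and the co-repressor gene Tle1) had a peak. The peak at Runx1 (chr16:92826173-92826295) lay in a UTR at an annotated start of the gene, was single-copy with 3 hexamers, and had a Runx1 fold of 4.4 and Runx2 folds of 7.72 in control and 8.55 in Runx1KO cells. Of the 10 tested metanephric mesenchyme genes 4 fell and 1 rose. Eya1, a transcription co-activator of kidney progenitors, was the 1 with a peak, and was at 16, 16.6 and 15.9 TPM in control and 5.4, 6.1 and 6.1 TPM in Runx1KO libraries (log2 fold change -1.32, SE 0.0578, limma adjusted p = 1.45e-06). Its peak had Runx2 folds of 7.57 in control and 3.86 in Runx1KO cells.

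Of 18 tested epithelial genes 14 rose and 0 fell, and 2 had a closed-chromatin peak. Jup, the junction protein plakoglobin, rose from 70.3 ± 2.87 to 217 ± 4.19 TPM (log2 fold change 1.61, SE 0.0361, limma adjusted p = 5.95e-08), and its peak 1602 bp from the start had Runx2 in control cells alone. Grhl3, an epithelial transcription factor, was at 1.57 ± 0.306 and 1.73 ± 0.289 TPM. Of 18 tested mesenchymal genes 9 fell and 0 rose, and 1, Snai2, had a peak, in multicopy sequence. Snai2 RNA went up in the Runx1KO line, from 4.6 ± 0.361 to 8.4 ± 0.346 TPM (0.75, SE 0.0666, limma adjusted p = 5.5e-05). This rise stayed under the 2-fold limit, so it was not called. Of 8 tested AP-1 genes 3 rose and 0 fell. Fos was at 400, 413 and 422 TPM in control and 1467.3, 1548.6 and 1485.1 TPM in Runx1KO libraries (1.86, SE 0.0307, limma adjusted p = 1.72e-08), and its single-copy peak lay 32143 bp from the start. Jund was at 486 ± 21 and 770 ± 20.2 TPM, under the 2-fold limit.

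Of 22 tested TGF-beta and BMP genes 5 fell and 2 rose, and 1 had a closed-chromatin peak. Id2, an inhibitor of helix-loop-helix factors and a BMP target, was at 348, 320 and 336 TPM in control and 74.7, 68.9 and 80 TPM in Runx1KO libraries (log2 fold change -2.15, SE 0.0579, limma adjusted p = 1.43e-07). The Id2 peak (chr12:25781552-25781663) was single-copy, 631 bp from the start and 150 bp from a Runx1-independent region. It had no TGTGGT, and had a Runx2 peak in control cells alone.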

How the data were processed

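Per the paper's methods, reads were trimmed, aligned to mm9 and cleared of duplicates, and ChIP-seq peaks were called with MACS2 on combined replicates, with peaks of the Runx1 antibody in Runx1KO cells removed. The deposited lists give the authors' fold over background (a ratio) and the -log10 q-value. The methods state broad peaks and a q-value limit of 0.01, while the deposited lists have narrow-peak columns, and each carries 1 library name. The authors' ATAC-seq lists, of peaks in at least 2 of 3 replicates, were used for positions only. Their log2 fold changes and p-values between lines are the authors' own comparison and were not used. The authors deposited TPM rounded to 1 decimal. Depth is unknown from these files.

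Peaks, copy number (31-base words counted over mm9) and motifs were computed with Python 3.11.15, numpy 2.4.6, pandas 2.3.3, scipy 1.17.1 and pysam 0.24.0. Gene starts came from GENCODE. Classes were compared by two-sided Fisher's exact test with conditional odds ratios, motif p-values adjusted by Benjamini-Hochberg, with 95% intervals that cover counting error only. RNA was fitted with R 4.3.3 and limma 3.58.1 on log2(TPM + 1) with a variance trend for genes at 1 TPM or more in at least 3 of 6 libraries. A gene was called at a log2 change over 1 and adjusted p under 0.05, over all genes tested, and linked to peaks whose nearest start was within 100 kb. The scripts were tested on simulated data.

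The text names the 10 largest falls and rises among called genes, the 5 genes with most peaks, the 10 peaks of highest fold and the 5 of highest fold within 1 kb of a start, and listed genes with a peak. The members and lists were chosen with earlier results of these data known. Alternatives were other windows, limits, overlaps, scalings, pseudocounts and left-out libraries. Figures were drawn with matplotlib 3.10.9. The sequences of some peaks are not reported here.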

Additional observations from a re-analysis of the deposited data

How the results depend on the processing

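The number of closed-chromatin shared peaks was 1476, and 625 when a Runx2 peak in both lines was required and 505 on assembled chromosomes in single-copy windows, the latter chosen after the data were seen. The odds ratio for the Runx hexamer, 0.79 over all windows, reversed to 3.04 in single-copy windows and to 1.48 in single-copy windows over 1 kb from a start, also chosen after the data were seen. It stayed under 1 for the whole peak, 100 bp windows, a stricter q-value, peaks at least 1 kb from ATAC-seq regions and 50% cover by Runx2. The planned limit on soft-masked repeats was not run, because the genome used carries no masking. AP-1, gene starts and Runx2 in Runx1KO cells kept their direction and side of the threshold under the alternatives run for each.

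The 38 genes that rose became 21 when only single-copy peaks were linked. With the replicate block the counts were 36 falls and 38 rises, as without it. Same-numbered libraries did not deviate together (correlations -0.0532, 0.0139 and 0.00183), so the numbers were not taken as pairs. Leaving out 1 library gave 24 to 36 falls and 27 to 38 rises. Over all genes the share that fell was 2.96% without control replicate 3, 3.04% without control replicate 1 and 3.07% without control replicate 2 (5.10% with all), and the share that rose was 4.91% without Runx1KO replicate 3, 4.93% without Runx1KO replicate 1 and 4.98% without Runx1KO replicate 2 (7.91% with all). Genes detected in 1 line alone cannot then reach 3 libraries when that line loses 1, so fewer are tested. Of 534 values of named genes under the alternatives, 530 kept direction and call. Notch1 passed the 2-fold limit without control replicate 2 (-1.02), and 3 genes that were not called changed sign, Grhl3 (-0.05) and Tle1 (-0.01) under quantile normalization and Ywhah (0.01) under median-ratio scaling.

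Peak lists hold no replicate values, and windows of linked repeats count repeatedly in the tests.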

Other observations

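The 122 shared Runx1 peaks on unplaced sequences, 70 of them on 1 collection of unplaced contigs, were outside the ATAC-seq lists because those lists hold 0 regions there, and every shared Runx1 peak on such sequences was therefore among the 1476. Within 10 kb of another closed-chromatin shared peak lay 91 of 1352 (6.73%), and 26 of the 505 single-copy ones (5.15%).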
